A study of Mus musculus with 16 samples.

Results

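The genes described here encode the secretory translocon, the channel through which newly made proteins enter the endoplasmic reticulum (ER), and the signal sequence receptor bound to it. The 10 members are Tram1, the channel subunits Sec61a1, Sec61b and Sec61g, the import partners Sec62 and Sec63, and Ssr1, Ssr2, Ssr3 and Ssr4 of the signal sequence receptor, out of 19505 genes named on the array. They were taken by gene symbol, and all 10 had exactly 1 probe set. The set was chosen by the fall of Tram1 in the measured signal of H/R against control, so for that comparison the values below are a description without a test.

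Secretory and membrane proteins carry a signal sequence that is recognised as it leaves the ribosome and is handed to the Sec61 channel in the ER membrane. Tram1 contacts the arriving chain inside the membrane, and the signal sequence receptor, also called the translocon-associated protein (TRAP) complex, helps proteins whose signals open the channel poorly. Sec62 and Sec63 serve small proteins that are imported after translation, and proximal tubule cells need the route for the transporters and endocytic receptors of their surface.

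Signal was measured on 16 arrays, 4 in each of 4 groups, from BU.MPT, an established mouse proximal tubular line derived from an animal carrying a conditional T antigen transgene and grown here at 39 °C without interferon gamma. Control cells stayed in medium with 10% serum and 4.5 g/L glucose at 21% oxygen. The H/R cells spent 3 h at about 1% oxygen in medium without glucose or serum and 1 h back in complete medium, a model of hypoxia and reperfusion, so that oxygen, glucose and serum changed together and cannot be told apart. A further pair of groups, H/R+B12 and control+B12, had the same treatments with 0.3 µM cyanocobalamin, a form of vitamin B12. The sample titles give B12 for both groups, while the descriptions of replicates 2, 3 and 4 carry another number after the letter B, and all 8 were read as B12. The labels do not state whether the arrays of a group came from different cultures. The p-values therefore reflect the scatter among these arrays of 1 cell line, which may be technical.

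Values are log2 signal, so a difference of 1 is a 2-fold change, and levels of different probe sets are not compared with each other. Array medians over the 22206 probe sets tested ran from 5.21 to 5.37. They were lower in H/R (5.24 to 5.29) than in control (5.31 to 5.36), and lower in H/R+B12 (5.21 to 5.28) than in control+B12 (5.28 to 5.37). Negative control features had medians of 5.72 to 6.23, and the lowest value of any member, 9.13 for Sec61b, lay 2.90 above the highest of these. With 4 arrays in each group, precision is bounded by that number. Of 6 kidney epithelial markers Pax8, Cdh16, Krt8, Krt18 and Cdh1 were above the lowest negative control median and Epcam was not. Cdh1, at 6.17, lay within the range of the negative control medians. The median of every array over the probe sets tested was also below the lowest of them. Of 8 proximal tubule markers Aqp1 was above the lowest negative control median, while Slc34a1, Lrp2, Cubn, Slc5a2, Slc5a12, Slc22a6 and Hnf4a were below. Of 19 markers of distal nephron, fibroblasts, endothelium and leukocytes 17 were below the same median, the exceptions being Col1a1 (6.08) and Csf1r (9.22). In a bulk sample, fewer cells and less RNA per cell cannot be told apart.

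Tram1 had much less signal after H/R in both arms of the study. The 4 control arrays read 13.78, 13.93, 13.77 and 13.99, and the 4 H/R arrays 11.77, 11.59, 11.60 and 11.84. The 4 control+B12 arrays read 13.85, 13.83, 14.04 and 13.70, and the 4 H/R+B12 arrays 12.06, 12.15, 11.95 and 12.15. Every array with H/R lay below every array without it, with a gap of more than 1 log2 unit, and the arrays with H/R and B12 all lay above those with H/R alone.

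The difference that led to the choice of Tram1, H/R minus control, was -2.16 ± 0.12 (SE, n = 4 against 4; 95% interval -2.42 to -1.91), a signal 4.48-fold lower. The arrays with B12 were not in that comparison and gave the same direction. In H/R+B12 against control+B12 Tram1 fell by 1.78 ± 0.12 on the log2 scale, 3.43-fold (95% interval -2.04 to -1.52). The adjusted p was 7.94e-08 by limma. The set was framed to put the fall of Tram1 beside the other members over all 4 groups. Earlier results of these data were also known when it was chosen, so this p is not independent support for the fall. Of 22206 probe sets 29 had a more negative difference in H/R+B12 against control+B12. With arrays centred on their medians, which removes the lower array medians of the H/R samples, Tram1 was still at -1.69.

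**Figure D1:**
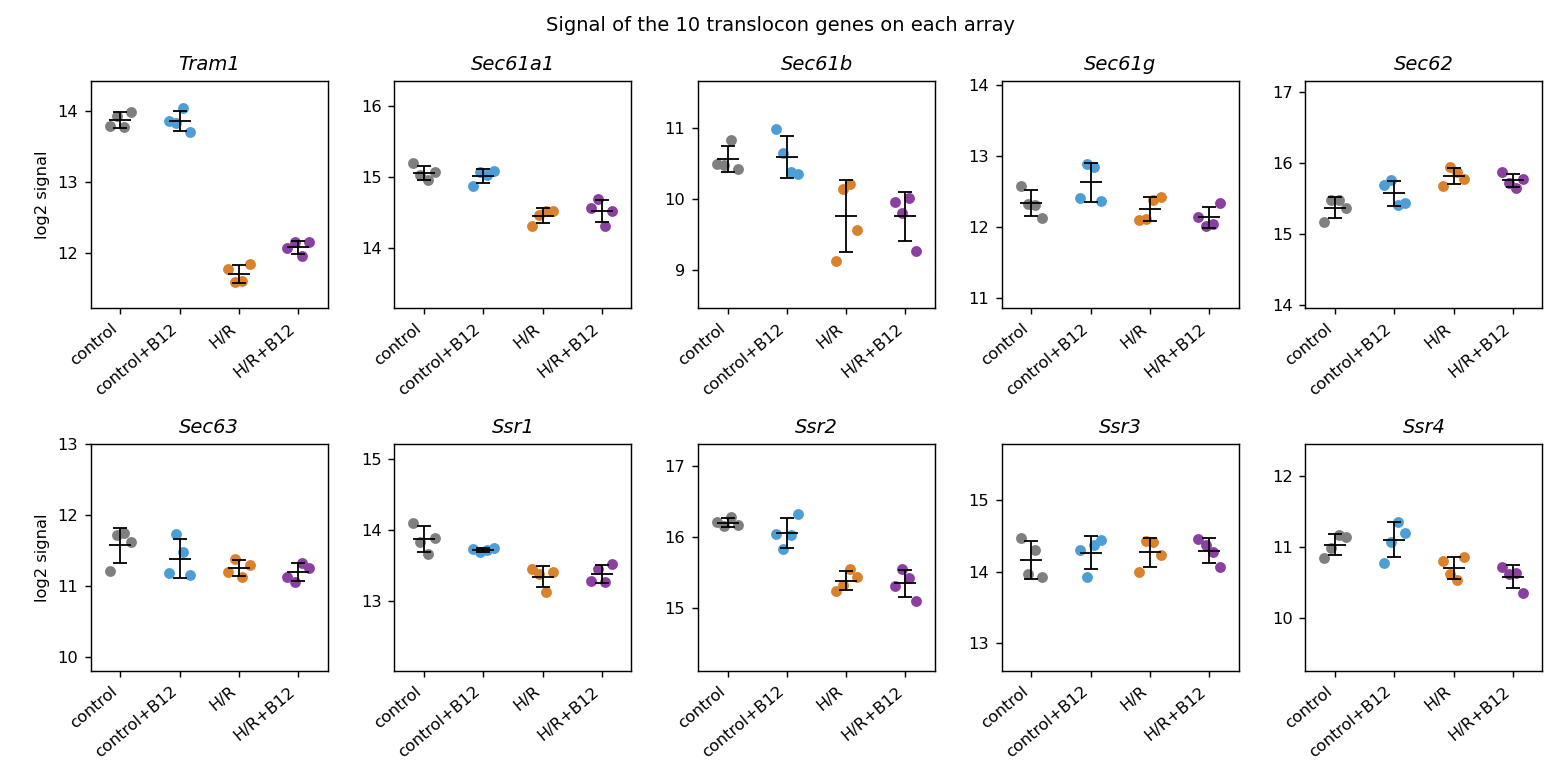
Log2 signal (vertical axes, each spanning the same range of log2 units) of the 10 translocon genes on each of 16 arrays, by group; points are arrays, the bar is the mean and the whiskers are the SD of 4 arrays. Tram1 drops from about 13.86 in both groups without H/R to 11.70 in H/R and 12.08 in H/R+B12, Sec61a1 and Ssr2 drop less, and Ssr3 stays at 14.16 to 14.30.

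Among the 10 members 6 fell and 0 rose in H/R+B12 against control+B12. The 6 were Tram1, the 3 channel subunits Sec61a1, Sec61b and Sec61g, and the receptor subunits Ssr2 and Ssr4. Over all probe sets 9.61% were called lower and 9.04% higher in this comparison. The median difference was -0.49 over the members, and also -0.49 over the 9 without Tram1, against -0.04 over all probe sets. The 4 H/R+B12 arrays lay below all 4 control+B12 arrays in 7 members and above them in 0, against 11.2% and 10.3% of all probe sets. With arrays centred on their medians 4 members were lower, against 7.23% lower and 10.9% higher of all probe sets. H/R against control was used to choose the set, so its counts are no test of the members and nothing is read from them. There 5 members were past the same threshold lower (9.54% of all probe sets; 7.41% with centred arrays) and 1 higher (8.11%; 9.61% with centred arrays). Groups did not overlap in 5 members lower (11.0% of all probe sets), Tram1, Sec61a1, Sec61b, Ssr1 and Ssr2, and in Sec62 higher (9.88%). The median was -0.43 against -0.02 over all probe sets.

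The channel itself lost signal in its pore subunit. Sec61a1 forms the aqueous pore and the side gate through which signal sequences enter the membrane. It read 14.88, 15.08, 15.03 and 15.09 in control+B12 and 14.56, 14.69, 14.31 and 14.53 in H/R+B12. The ranges did not overlap, and Sec61a1 fell by 0.49 ± 0.12 (SE, n = 4 against 4; limma, adjusted p = 0.00854), a 1.41-fold change. In the arrays without B12 it read 15.19, 15.04, 14.96 and 15.07 in control and 14.31, 14.47, 14.53 and 14.53 in H/R, a difference of -0.60 ± 0.12.

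Sec61b is a small tail-anchored subunit, and its SD over the 4 arrays was 0.299 in control+B12 and 0.340 in H/R+B12. It read 11.00, 10.65, 10.38 and 10.35 in control+B12 and 9.96, 9.80, 10.01 and 9.27 in H/R+B12, again without overlap. It fell by 0.84 ± 0.24 (limma, adjusted p = 0.0198). The call was lost without control+B12 1 (0.0686) or H/R+B12 4 (0.072), with adjusted p from 0.0026 to 0.072 over all 23 alternative settings. Without B12 the difference was -0.80 ± 0.24, with H/R arrays from 9.13 to 10.21 and control arrays from 10.43 to 10.83.

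Sec61g, the other tail-anchored subunit, which clamps the channel from its side, passed in the arrays with B12. It read 12.42, 12.90, 12.84 and 12.37 in control+B12 and 12.15, 12.02, 12.05 and 12.35 in H/R+B12, groups that were separated by a narrow margin. It fell by 0.49 ± 0.16 (limma, adjusted p = 0.0381). Without B12 the difference was -0.08 ± 0.16 and the ranges overlapped, 12.13 to 12.58 in control and 12.11 to 12.43 in H/R. The interaction, -0.41 ± 0.22 (95% interval -0.89 to 0.06), contains the comparison used for the choice and was not tested. The call of Sec61g was lost in 8 of 23 alternatives: without control+B12 2 (0.118) or 3 (0.111), without H/R+B12 1 (0.0712), 2 (0.0985) or 3 (0.0927), with a replicate block (0.0678), with centred arrays (0.0823) and with only the 2 groups fitted (0.0887), and the lowest value was 0.0065.

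The partners of the channel in import after translation did not pass in the arrays with B12. Sec62, which also serves as a receptor for the removal of ER membrane by autophagy, read 15.69, 15.77, 15.41 and 15.44 in control+B12 and 15.87, 15.72, 15.66 and 15.78 in H/R+B12. These ranges overlapped, and the difference was 0.18 ± 0.13 (95% interval -0.10 to 0.46; limma, adjusted p = 0.406). Without B12, Sec62 had the opposite sign to Tram1. For Sec62 control read 15.17, 15.48, 15.48 and 15.37 and H/R 15.68, 15.94, 15.87 and 15.77, a difference of 0.44 ± 0.13. The estimate for Ssr3 was also positive, but its 95% interval of -0.25 to 0.46 held both signs and its groups overlapped. The control and H/R arrays of Sec62 did not overlap. Sec63, whose lumenal domain recruits the chaperone BiP, was at -0.19 ± 0.16 with B12 (95% interval -0.53 to 0.15; limma, adjusted p = 0.487) and at -0.32 ± 0.16 without it.

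Of the 4 subunits of the signal sequence receptor, Ssr2 and Ssr4 fell with B12, and Ssr1 and Ssr3 did not pass. Ssr2, its beta subunit, read 16.05, 15.83, 16.03 and 16.33 in control+B12 and 15.32, 15.56, 15.43 and 15.11 in H/R+B12. The groups did not overlap, and Ssr2 fell by 0.71 ± 0.14 (SE, n = 4 against 4; limma, adjusted p = 0.00158), a 1.63-fold change. Without B12 the control arrays lay between 16.16 and 16.29 and the H/R arrays between 15.25 and 15.56, a difference of -0.82 ± 0.14. Together with Tram1 and Sec61a1, Ssr2 passed in all 23 alternatives with B12, with adjusted p up to 0.0169 for Ssr2 and 0.0416 for Sec61a1.

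Ssr4, the delta subunit, read 10.77, 11.07, 11.35 and 11.19 in control+B12 and 10.72, 10.62, 10.63 and 10.35 in H/R+B12. The highest H/R+B12 array lay just under the lowest control+B12 array, and Ssr4 fell by 0.52 ± 0.15 (limma, adjusted p = 0.0207). The call was lost without control+B12 3 (0.071) or 4 (0.0546), without H/R+B12 4 (0.0701), with centred arrays (0.0553) and with only the 2 groups fitted (0.066), with a range from 0.0081 over the 23 alternatives. Without B12 the difference was -0.33 ± 0.15 and the ranges of control (10.85 to 11.16) and H/R (10.53 to 10.86) overlapped narrowly.

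Ssr1, the alpha subunit, had non-overlapping groups but did not pass. It read 13.73, 13.68, 13.71 and 13.74 in control+B12, the tightest group of any member, and 13.27, 13.45, 13.27 and 13.51 in H/R+B12. The difference was -0.34 ± 0.13 (95% interval -0.61 to -0.07; limma, adjusted p = 0.0793), and it passed with an intensity trend (0.0165), without the dimmest 25% of probe sets (0.0464) and after quantile normalization (0.031), the highest value over 23 alternatives being 0.213. Without B12 it was -0.53 ± 0.13. Ssr3, the gamma subunit, did not pass: its 16 arrays lay between 13.92 and 14.48, and the differences were 0.03 ± 0.17 with B12 (95% interval -0.32 to 0.39; limma, adjusted p = 0.93) and 0.10 ± 0.17 without.

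The upstream sequence of 7 members was at hand in the RefSeq promoter table of build GRCm38.p6, and the 250 bases before the start were searched. Sec62, Ssr1 and Sec61b are shown because the estimate for Sec62 after H/R differed in sign from those for Ssr1 and Sec61b. Neither Sec62 nor Ssr1 passed with B12, and the difference in sign was not tested. Sec62 and Ssr1 hold the same ACGTG core. Capitals mark ACGTG on either strand, the core of the element bound by the hypoxia-inducible factor HIF. The regions are chr3:30792626-30792875 on the plus strand for Sec62, chr13:37994209-37994458 on the minus strand for Ssr1 and chr4:47474411-47474660 on the plus strand for Sec61b.
Sec62: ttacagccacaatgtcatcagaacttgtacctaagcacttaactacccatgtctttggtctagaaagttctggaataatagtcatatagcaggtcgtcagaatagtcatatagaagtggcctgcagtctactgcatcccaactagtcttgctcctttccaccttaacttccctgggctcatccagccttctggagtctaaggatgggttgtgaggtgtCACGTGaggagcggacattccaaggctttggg
Ssr1: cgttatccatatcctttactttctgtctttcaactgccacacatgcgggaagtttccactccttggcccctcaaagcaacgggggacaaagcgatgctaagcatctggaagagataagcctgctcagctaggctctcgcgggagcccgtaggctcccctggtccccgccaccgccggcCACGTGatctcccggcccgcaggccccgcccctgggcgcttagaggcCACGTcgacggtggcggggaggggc
Sec61b: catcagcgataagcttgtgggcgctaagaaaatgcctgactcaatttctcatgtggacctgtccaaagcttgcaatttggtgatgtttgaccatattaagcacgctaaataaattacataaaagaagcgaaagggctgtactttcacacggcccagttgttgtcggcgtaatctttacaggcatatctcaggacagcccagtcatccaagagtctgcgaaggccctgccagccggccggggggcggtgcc

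ACGTG was present in 4 of the 7 members, Sec62, Sec63, Ssr1 and Ssr3, against 16.6% of all promoters in the table. These 4 did not pass with B12. The other members searched, Sec61b, Sec61g and Ssr4, were called lower with B12, each call being lost in some alternatives. This split was seen after the search and was not tested. In Sec62 and Ssr1 ACGTG read on both strands, as the palindrome CACGTG, also called an E-box. This palindrome is held by 6.02% of all promoters and was searched after the sequences were seen. The ER stress response element (ERSE), CCAAT and CCACG with 9 bases between them, through which many ER chaperone genes respond to unfolded proteins, was in 0 of 7 (0.113% of all promoters), TGACGTGG in 0 of 7 (0.563%) and TGACGTCA in 0 of 7 (1.55%). CCAAT was in Sec61g, Sec63 and Ssr3 (33.8% of all promoters), and CCACG in Sec63, Ssr1 and Ssr3 (28.3%), where some of its matches overlap CACGT. Both strands were searched, TGACGTGG contains ACGTG, and a match describes letters in this window only. Tram1, Sec61a1 and Ssr2 have no sequence shown.

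**Figure D2:**
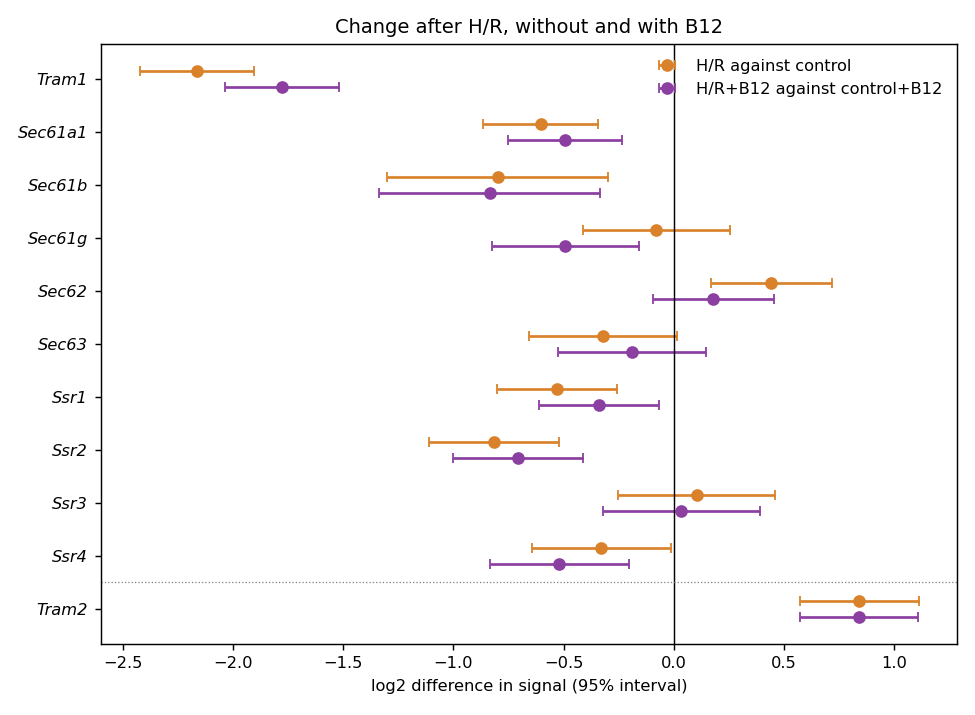
Difference in log2 signal (horizontal axis) after H/R for each member and for Tram2, without B12 (H/R against control) and with B12 (H/R+B12 against control+B12); points are estimates from the fit of all 16 arrays and bars are 95% intervals. Tram1 stands at -2.16 and -1.78, the other 9 members between -0.84 and 0.44, and Tram2 at 0.84 in both.

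The change of Tram1 was set beside that of each other member within arrays. The log2 signal of Tram1 minus that of each other member was compared between H/R+B12 and control+B12 in 9 pairs. These arrays lie outside H/R against control, but the set was framed around the fall of Tram1 and earlier results of these data were known. All 9 pairs also use the same Tram1 values, so they are not 9 separate results. Their p-values are therefore no independent support for a larger fall of Tram1. In 8 of the 9 pairs the H/R+B12 and control+B12 arrays were fully separated (two-sided exact permutation, p = 0.0286, the smallest value 4 against 4 arrays allow; 0.0321 adjusted over the 9 pairs). Among these 8 pairs the extra fall of Tram1 was smallest against Ssr2, -1.07 ± 0.19, and largest against Sec62, -1.96 ± 0.13. Against Sec61a1 it was -1.28 ± 0.10. The remaining pair, with Sec61b, differed by -0.94 ± 0.26 but the ranges overlapped, 1.94 to 2.88 in H/R+B12 and 2.85 to 3.66 in control+B12, and it did not pass (exact permutation p = 0.0571, the same after adjustment). After quantile normalization all 9 pairs passed.

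**Figure D3:**
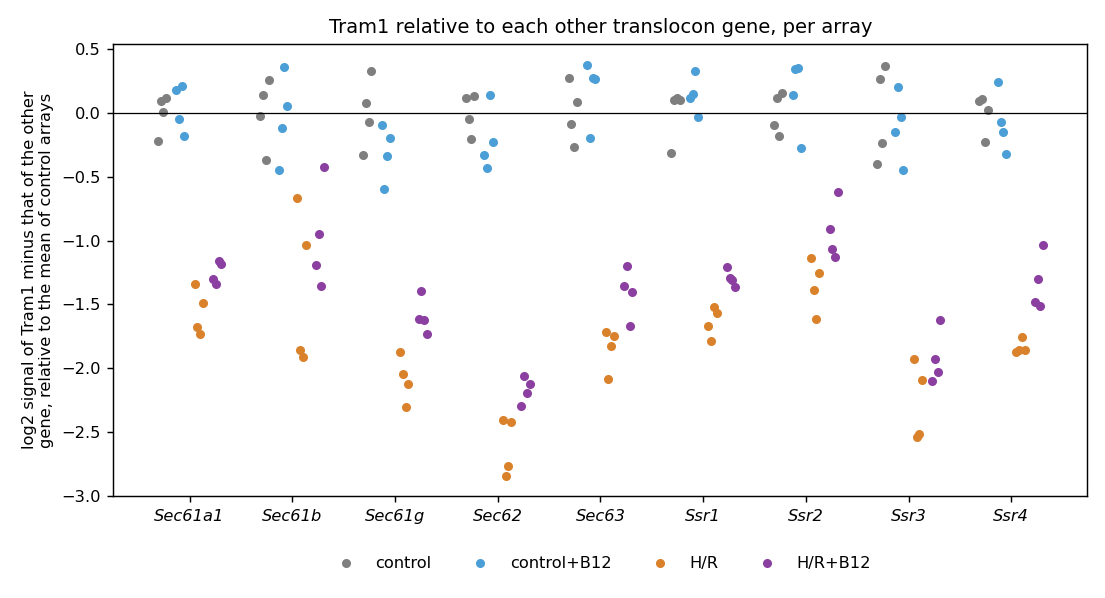
Log2 signal of Tram1 minus that of each other member on each array (vertical axis), shown relative to the mean of the 4 control arrays for that pair; points are arrays, coloured by group. The arrays with H/R lie below those without in all pairs except that of Sec61b, where they overlap.

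No member passed the threshold in the comparisons of B12 with no B12. In H/R+B12 against H/R and in control+B12 against control 0 of 10 members and 0 of 22206 probe sets were called by limma. At an unadjusted p under 0.05, 0 of the 9 members other than Tram1 passed in either, against 4.55% of all probe sets in the former and 5.76% in the latter. Both comparisons share arrays with the comparison used for the choice, so Tram1 is given as values. It was 0.38 ± 0.12 higher in H/R+B12 than in H/R (95% interval 0.12 to 0.64), 1.30-fold, with arrays of 11.95 to 12.15 against 11.59 to 11.84, and 1.38% of all probe sets were separated in that direction. In normal culture the difference was -0.0085 ± 0.12, and the interaction was 0.39 ± 0.17 (95% interval 0.02 to 0.75), with 0 of 22206 interactions called by limma and 4.82% of all probe sets at an unadjusted p under 0.05. The other 9 members lay between -0.12 and 0.06 in H/R+B12 against H/R, and between -0.19 and 0.30 in control+B12 against control.

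Tram2, the paralog of Tram1 in the same family of membrane proteins, went the other way. It read 11.68, 11.73, 12.13 and 11.78 in control+B12 and 12.66, 12.64, 12.70 and 12.67 in H/R+B12. All H/R+B12 arrays lay above all control+B12 arrays, and Tram2 rose by 0.84 ± 0.13 (limma, adjusted p = 0.000169). It also rose by 0.84 ± 0.13 without B12 (limma, adjusted p = 0.00017), from 11.61 to 11.87 in control to 12.54 to 12.71 in H/R, and it passed in all 23 alternatives of both comparisons. Of the 3 paralogs of translocon genes 1 was lower and 1 higher with B12, and 0 and 1 without. Tram1l1, another paralog, lay below the negative control medians at a mean of 3.48 and its differences, 0.06 and -0.25, are uncertain. Sec61a2, the paralog of the pore subunit, fell by 0.54 ± 0.17 with B12 (limma, adjusted p = 0.0369) and was at -0.33 ± 0.17 without it (0.226). The Sec61a2 call was lost with centred arrays (0.0894) and without control+B12 1 (0.121) or 2 (0.0649) or any 1 of the 4 H/R+B12 arrays (0.0524 to 0.0978).

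The other steps of entry into the ER were followed in 10 gene lists, of which 76 of 78 genes were measured. In H/R+B12 against control+B12, 21 of the 76 were lower and 9 higher, with a median of -0.15, against 9.61% lower and 9.04% higher of all probe sets. The share of higher genes, and counts of 1 gene in the lists below, are near that background. In H/R against control 24 were lower and 9 higher, with a median of -0.16. Over all probe sets 9.54% were lower and 8.11% higher there, with a median of -0.02. The counts without B12 below stand beside these shares, and the share of higher genes is again near background. The medians of the lists with B12 ran from -0.61 to 0.33.

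The oligosaccharyltransferase, which attaches sugar chains to proteins as they leave the channel, had 7 of 12 subunits lower and 0 higher with B12 (8 and 0 without; median -0.61 with B12). Its small subunit Ost4 fell by 1.43 ± 0.12 (limma, adjusted p = 6.16e-07) and the oxidoreductase subunit Magt1 by 1.18 ± 0.14 (2.17e-05). The catalytic subunits Stt3a and Stt3b, named after their values were seen, were at -0.17 and -0.27 and did not pass.

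The partners of the translocon for proteins with many membrane spans had 3 of 6 lower and 1 higher with B12 (4 and 1 without, 0 higher there with only the 2 groups fitted; median -0.45 with B12). Tmem147 fell by 1.04 ± 0.14 (limma, adjusted p = 4.87e-05) and Tmco1, an insertase, by 0.83 ± 0.16 (0.00128), while Ccdc47, named after its value was seen, rose by 0.46 (0.0123). The ER membrane protein complex, another insertase, had 3 of 9 lower and 1 higher in both comparisons (2 lower with centred arrays and B12, 5 lower with an intensity trend and no B12; median -0.33 with B12). Emc10 fell by 1.10 ± 0.21 (limma, adjusted p = 0.00113) and the membrane subunit Emc6 rose by 0.99 ± 0.16 (0.000251).

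Signal peptidase, which cuts off the signal sequence, had 2 of 5 lower and 0 higher with B12 (median -0.39). The 2 became 1 with centred arrays or without any 1 of the 8 arrays compared, except that 0 were past the threshold without H/R+B12 4, and 0 with only the 2 groups fitted. Without B12 the count was 3, and 1 without control 1 or H/R 1, 3 or 4. Spcs1 fell by 0.55 ± 0.16 (limma, adjusted p = 0.019) and the catalytic subunit Sec11c by 0.88 ± 0.28 (0.0371). The H/R+B12 and control+B12 arrays of Spcs1 and of Sec11c overlapped. Spcs1 did not pass without control+B12 2 or 3 or H/R+B12 2 or 4, or with only the 2 groups fitted (up to 0.0758). Sec11c did not pass without control+B12 1 or 4 or H/R+B12 1, 3 or 4, with centred arrays, or with only the 2 groups fitted (up to 0.125).

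The signal recognition particle and its receptor, which bring ribosomes to the membrane, had 0 of 10 lower and 2 higher with B12 (median 0.17). Without B12 0 were lower and 3 higher, but 0 were higher without H/R 3 or with only the 2 groups fitted, 1 without control 3 or H/R 2, and 5 with an intensity trend, and 1 was lower in several alternatives, among them those without control 4 or H/R 3. The signal-binding subunit genes Srp54a and Srp54b rose by 0.48 ± 0.13 (limma, adjusted p = 0.0123) and 0.43 ± 0.13 (0.0302). They are near-identical copies, so their separate values are uncertain and the count of 2 may hold 1 signal. Without B12 the 3 higher genes were these and Srp54c, and no other gene of the list was called higher. With B12, Srp54b did not pass without control+B12 1, 2 or 4 or H/R+B12 1, 3 or 4. It also did not pass with a replicate block, after quantile normalization or with only the 2 groups fitted. Over these settings its adjusted p by limma was up to 0.0985. Of 4 ribosome anchors of the ER 1 rose with B12: Lrrc59 rose by 0.56 ± 0.15 (limma, adjusted p = 0.0137), and Ktn1 was at 0.41 ± 0.17 (0.127; 0.028 without control+B12 1).

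Insertion of tail-anchored proteins, a separate route that does not use Sec61, had 1 of 7 lower and 1 higher with B12 (0 lower and 2 higher with centred arrays, 2 higher without the dimmest 25% of probe sets), and its median of -0.04 turned to 0.04 with centred arrays. The ATPase Get3 fell by 0.46 ± 0.15 (limma, adjusted p = 0.04) and Ubl4a rose by 0.62 ± 0.19 (0.032). The Ubl4a groups overlapped, and its control+B12 mean of 6.49 lay near the highest negative control median, 6.23. Get3 did not pass without control+B12 1, 2 or 4 or H/R+B12 1, 2 or 4, with a replicate block, with centred arrays or with only the 2 groups fitted (up to 0.119), and Ubl4a not without control+B12 2, 3 or 4 or H/R+B12 2, 3 or 4, with a replicate block, an intensity trend or only the 2 groups fitted (up to 0.106).

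BiP, the lumenal chaperone that pulls chains through the channel, and its helpers had 3 of 10 lower and 1 higher with B12 (median -0.35). The lower count was 6 with an intensity trend and 5 without the dimmest 25% of probe sets, and 2 were higher without H/R+B12 4. Sdf2l1 fell by 2.19 ± 0.19 (limma, adjusted p = 8.59e-07) and the co-chaperone Dnajc3 by 0.97 ± 0.17 (0.000616). The 1 higher gene was Dnajb9, named after its value was seen, which rose by 0.85 ± 0.15 (limma, adjusted p = 0.000704). The BiP gene Hspa5, named after its value was seen, was at -0.30 with B12 and did not pass (limma, adjusted p = 0.0828). The COPII coat, which carries cargo out of the ER, had 1 of 10 lower and 1 higher with B12, and 2 higher with an intensity trend or without H/R 3 or H/R+B12 3. Of its 4 Sec24 cargo adaptors Sec24b rose by 0.85 ± 0.16 (limma, adjusted p = 0.00111) and Sec24c fell by 0.62 ± 0.14 (0.00479), while Sec24a (0.60 ± 0.22, 0.0729) and Sec24d (-0.10 ± 0.20, 0.812) did not pass. The median of the coat was -0.02 with B12 and turned to 0.07 with centred arrays.

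**Figure D4:**
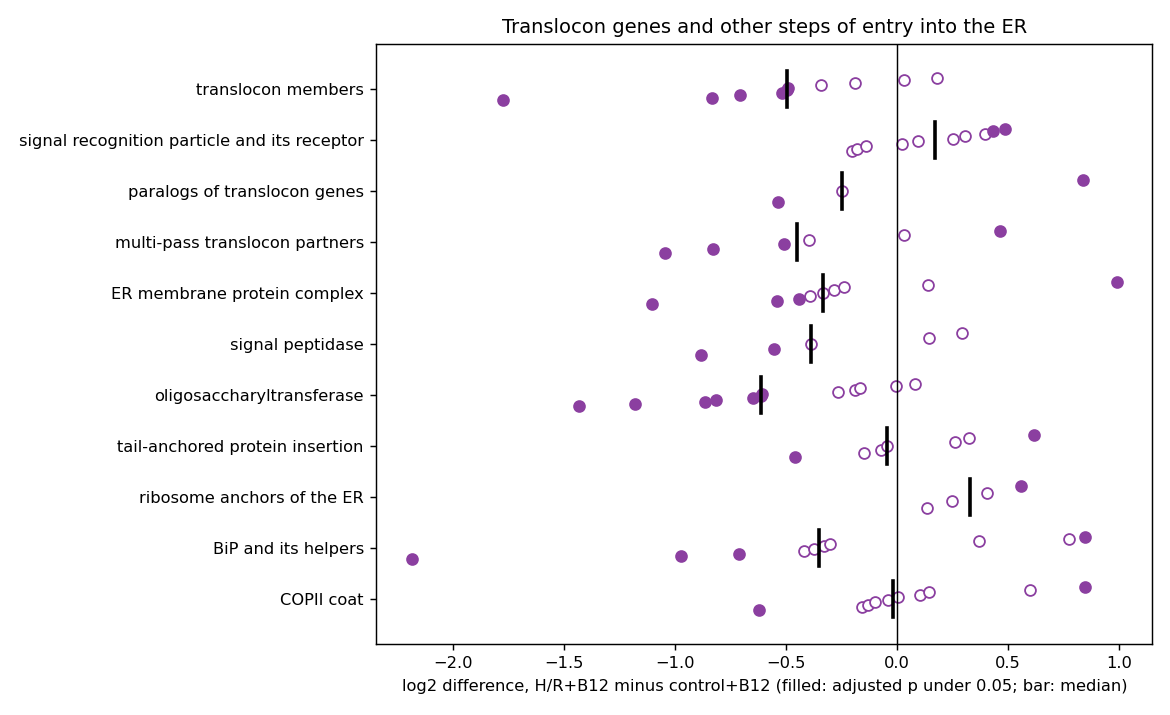
Difference in log2 signal, H/R+B12 minus control+B12 (horizontal axis), for the translocon members and 10 lists of other steps of entry into the ER; each point is a gene, filled points have an adjusted p under 0.05 and black bars are medians. Medians run from -0.61 for the oligosaccharyltransferase to 0.33 for the ribosome anchors, with -0.49 for the translocon members.

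The genes whose signal followed Tram1 most closely over the 16 arrays were Tcf7l2 (Pearson r = 0.987), Ost4 (0.987), Calm3 (0.984), Smdt1 (0.984) and Prdx1 (0.983). Running most opposite were Mex3c (-0.990), Usp22 (-0.985) and Pdlim5 (-0.984). These values describe a split into 2 clusters, arrays with and without H/R, and within the 8 arrays without H/R they ranged from -0.07 for Ost4 to 0.83 for Calm3 among the 5 most alike. Within the 8 arrays with H/R the order differed, with -0.04 for Calm3, 0.68 for Ost4 and 0.86 for Prdx1. Of the other members Sec61a1 came closest (r = 0.935, with 292 of 22206 probe sets more alike), followed by Ssr2 (0.903) and Ssr1 (0.873), while Sec62 (-0.755) and Ssr3 (-0.211) had the opposite sign. These values too mainly describe the split. Within the 8 arrays without H/R, r was -0.15 for Sec61a1, -0.41 for Ssr2 and 0.001 for Ssr1. Within the 8 arrays with H/R it was 0.38, -0.21 and 0.45.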

How the data were processed

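The authors deposited log2 signal per probe set and array. The submitters' processing notes name robust multi-array averaging (RMA), Affymetrix Expression Console and the Transcriptome Analysis Console, with no version, and the labels state no genome build. Of 28846 features 6640 controls were left out, and 22206 probe sets were tested, 19572 with 1 gene symbol, 2634 with none and 0 with several. Normalization between arrays can hide a shift shared by all genes. The listed genes Mmgt1 and Hm13 had no matching symbol.

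All 16 arrays were fitted as 4 groups with limma 3.58.1 in R 4.3.3, with two-sided p-values adjusted over 22206 probe sets (Benjamini and Hochberg, threshold 0.05). The fit was run on simulated data with planted changes, which checks the code and not whether the model suits these arrays. Exact permutation tests, motif searches and plots used Python 3.11.15. Members and lists were chosen with earlier results of these data known. All members were named, with the 2 smallest p-values of each list in H/R+B12 against control+B12, every translocon paralog, and the 5 named genes most and 3 least correlated with Tram1, passing over predicted and small RNA genes. Alternatives were a replicate block, fits of 2 groups, an intensity trend, array weights, no dim probe sets, quantile normalization, centred arrays and leaving out each array. Raw array images were not used here.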

Additional observations from a re-analysis of the deposited data

How the results depend on the processing

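Over 23 alternative settings no called value changed sign. The fall of Tram1 with B12 ran from -1.83 to -1.69. In H/R against control the count of members past the threshold and higher was 1, and 0 with only the 2 groups fitted; it ran from 0 to 1 with each array left out, with 0 without control 1 or 4 or H/R 2 or 3. The pathway list genes higher in that comparison numbered 9, 4 with only the 2 groups fitted and 14 with an intensity trend, and from 5 to 9 with each array left out, with 5 without H/R 3. Pairs of Tram1 with another member past the threshold numbered 8, and 9 after quantile normalization. With each of the 8 arrays left out only the differences are given, and no p is printed. That with Sec61b ran from -1.13 to -0.81. The causes were not tested. With a replicate block 5 members were lower with B12 instead of 6, since Sec61g was lost (adjusted p = 0.0678 by limma), and over all probe sets in that comparison 2017 were lower and 1915 higher instead of 2135 and 2007. Replicate numbers only name samples: deviations of arrays with the same number correlated at -0.07 to 0.08. Another probe set per gene was not run, since each member has 1.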
